A study of Mus musculus with 3 samples.

Results

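The genes described here belong to the megakaryocyte and platelet programme, and their signal was measured in sorted haematopoietic stem cells of the mouse. A list of 35 genes was used, named for platelet adhesion, granule content, activation and signalling and given by symbol. Of these, 33 had a probe set naming a single gene, out of 19938 genes measured in all, and each of the 33 had only 1 probe set. Sdpr was found under its current symbol Cavin2, and Serpine2 and Ptgs1 are not analysed here. The cells came from bone marrow of wild-type C57Bl/6 mice of 6 to 10 weeks. The sorted cells carried CD150, Sca-1 and c-Kit at the surface and lacked lineage markers, CD41 and CD48, a gate called KLS SLAM that enriches for long-term stem cells. All 3 arrays belong to this group, so no contrast of genotype or treatment was made. The arrays are called 1, 2 and 3 after their replicate numbers. Nothing in the labels ties them to separate animals, so the spread between them may be technical.

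Megakaryocytes are the marrow cells that shed platelets, and platelets carry the adhesion receptors, granule proteins and signalling enzymes that stop bleeding. Part of this programme is transcribed at low level in haematopoietic stem cells, and stem cells that carry Vwf transcripts are known to be biased toward platelet production. The CD41 protein used to exclude cells from the gate is the product of Itga2b, itself a gene of the list. No cells outside the gate were measured, so the part of the sort in its level was not tested. In a pool of sorted cells, a few cells with much of a transcript and many cells with little of it cannot be told apart.

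Since the promoters of platelet genes are known to be read by GATA, ETS and NF-E2 with small MAF factors, the 250 bases before the start of 7 members are shown, 5′ to 3′ on the strand of the gene. They were taken from RefSeq on GRCm38.p6, in which 26 of the 33 measured members had an entry. Pf4 and Ppbp are shown as neighbours whose lowest values fell on different arrays, and Itga2b as the gene of the sort marker. Gp9 and Gp5 are shown as subunits of a shared receptor, Mmrn1 as a member with a wide spread and F2rl2 as a thrombin receptor. Capitals mark every match, on either strand, to the GATA motif (AGATA or GATAA), the ETS motif (AGGAAG or CGGAAG) and the MAF half-site (TGCTGA).
Pf4: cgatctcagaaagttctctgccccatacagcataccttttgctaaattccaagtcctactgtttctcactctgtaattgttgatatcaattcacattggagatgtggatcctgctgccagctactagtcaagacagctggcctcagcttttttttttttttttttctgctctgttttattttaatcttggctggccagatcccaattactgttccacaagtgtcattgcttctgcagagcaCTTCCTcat
Ppbp: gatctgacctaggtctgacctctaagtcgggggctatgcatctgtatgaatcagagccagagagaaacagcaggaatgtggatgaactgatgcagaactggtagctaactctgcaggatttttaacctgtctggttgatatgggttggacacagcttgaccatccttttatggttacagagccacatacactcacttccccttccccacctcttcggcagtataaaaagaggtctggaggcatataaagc
Itga2b: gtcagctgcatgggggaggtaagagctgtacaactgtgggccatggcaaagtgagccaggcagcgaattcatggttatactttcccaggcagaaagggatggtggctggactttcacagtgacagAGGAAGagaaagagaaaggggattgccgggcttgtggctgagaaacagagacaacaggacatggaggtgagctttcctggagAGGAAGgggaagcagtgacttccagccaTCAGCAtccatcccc
Gp9: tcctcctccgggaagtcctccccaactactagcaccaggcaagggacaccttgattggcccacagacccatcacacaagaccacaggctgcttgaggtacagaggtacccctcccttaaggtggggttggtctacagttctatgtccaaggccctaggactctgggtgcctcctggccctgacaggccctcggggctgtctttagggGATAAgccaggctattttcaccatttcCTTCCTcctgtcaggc
Gp5: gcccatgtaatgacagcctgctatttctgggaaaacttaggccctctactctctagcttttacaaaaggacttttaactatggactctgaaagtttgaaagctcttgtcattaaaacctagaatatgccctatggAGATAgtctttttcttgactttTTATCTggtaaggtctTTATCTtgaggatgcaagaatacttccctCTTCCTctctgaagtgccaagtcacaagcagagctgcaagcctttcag
Mmrn1: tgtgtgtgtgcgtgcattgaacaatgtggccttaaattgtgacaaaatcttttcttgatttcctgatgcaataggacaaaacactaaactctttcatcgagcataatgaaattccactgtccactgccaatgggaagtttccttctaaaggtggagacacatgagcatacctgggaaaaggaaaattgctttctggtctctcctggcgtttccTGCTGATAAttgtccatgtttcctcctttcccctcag
F2rl2: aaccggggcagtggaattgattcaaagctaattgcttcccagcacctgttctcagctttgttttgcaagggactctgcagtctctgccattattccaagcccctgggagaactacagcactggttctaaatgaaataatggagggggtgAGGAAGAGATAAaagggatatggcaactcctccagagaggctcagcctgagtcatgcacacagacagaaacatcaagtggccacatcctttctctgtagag

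The Pf4 window lay at chr5:90772185-90772434 and the Ppbp window at chr5:90768268-90768517, both on the forward strand, with 3917 bases between the starts of the genes. Itga2b was read from chr11:102469884-102470133 on the reverse strand, Gp9 from chr6:87777820-87778069 on the forward strand and Gp5 from chr16:30310782-30311031 on the reverse strand. Mmrn1 was read from chr6:60944067-60944316 and F2rl2 from chr13:95696670-95696919, both on the forward strand. The Gp5 window held 3 separate GATA matches and 1 ETS match. In F2rl2 a GATA match directly followed an ETS match, and in Mmrn1 the MAF half-site and a GATA match shared 2 letters. The Ppbp window held no match to any of these letters, and the GATA match of Pf4 lay after the start, 36 to 41 bases downstream.

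Over windows from 250 bases before to 50 after the start, a GATA match was present in 13 of 26 member promoters, or 50% (exact 95% interval 29.9% to 70.1%), and in 40% of 27025 promoters. An ETS match was present in 15 of 26, or 57.7% (36.9% to 76.6%), and in 46.4% of all promoters. The MAF half-site was present in 6 of 26, or 23.1% (8.97% to 43.6%), and in 19.1% of all. Each of these intervals contains the share of all promoters. The longer word AGATAA was present in 7 of 26, or 26.9% (11.6% to 47.8%), beside 11.4% of all promoters, a share just under that interval, and its carriers were Clec1b, F2rl2, F2rl3, Fyb, Gp5, Mpig6b and Pf4. Within the 250 bases before the start alone it was present in 5 of 26, or 19.2% (6.55% to 39.4%), beside 10.3% of all, without Clec1b and Pf4. Of the 7, Clec1b and Mpig6b gave array signals below background on every array, as described further on, while Fyb and Pf4 did not. A match describes letters in the window and no binding was measured.

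**Figure D1:**
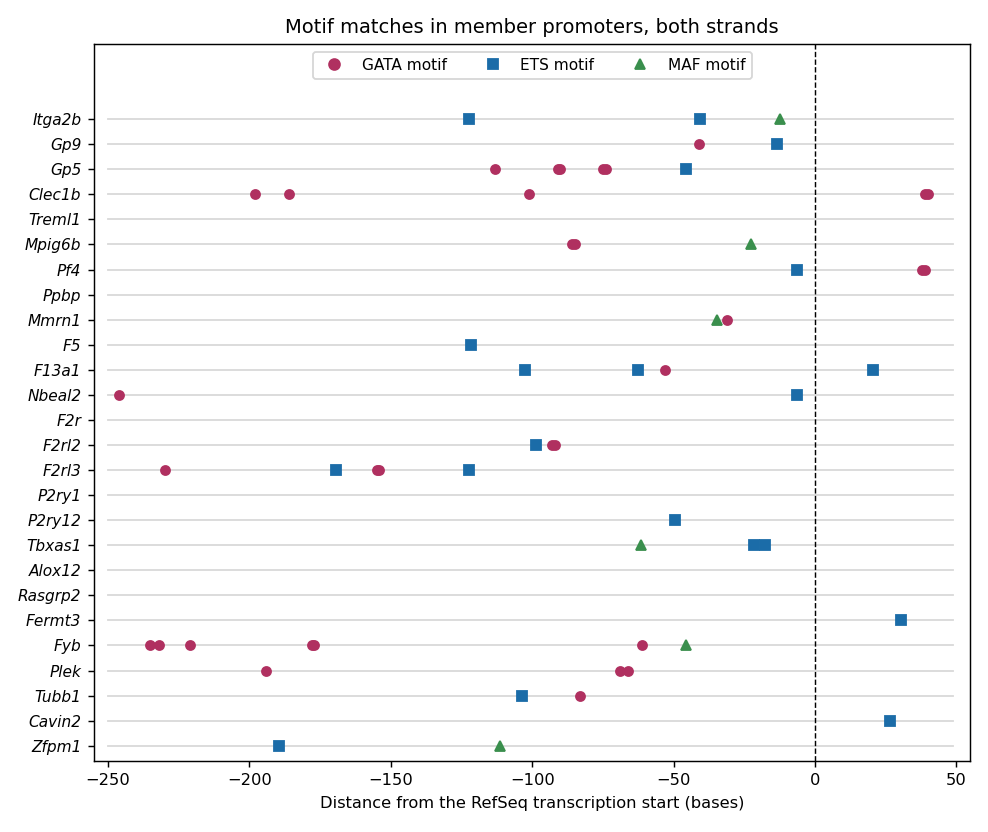
Positions of GATA, ETS and MAF matches in the promoters of 26 members, as the distance in bases from the RefSeq start, with 1 row per gene and 1 marker per match on either strand. Matches lie along the whole window, and 13 genes hold a GATA match, 15 an ETS match and 6 a MAF match.

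Array signal was read against a background limit, because the deposited table holds no detection calls. The limit on each array was the 95th percentile of 1229 olfactory, vomeronasal and taste receptor genes, which marrow cells should hardly transcribe. On arrays 1, 2 and 3 it lay at 6.30, 5.98 and 5.77 log2. All values below are log2 of the deposited intensities, and each describes the signal of that gene's own probes. Since probes differ in affinity, the value of a gene is set against the limit and against itself on other arrays. The limit itself comes from the probes of other genes. Levels of single genes are not compared with each other, while medians over many genes and the ranges of members are set side by side.

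Of the 33 measured members 18, or 54.5%, cleared the limit on every array, beside 36.8% of all genes. A further 9 cleared it on some arrays and 6 on no array, beside 42% of all genes on no array. Of the 9, Gp5, F13a1, Rab27b, F2rl3, P2ry1 and Thbd fell short on array 1 alone, where the limit was highest, as did 10% of all genes. Ppbp missed it on array 2 alone, and Thbs1 and Tubb1 passed on array 3 alone. The excess over all genes was not present at a stricter limit: above the 99th percentile of the receptor genes on every array stood 6 members, or 18.2%, beside 17.4% of all genes. These 6 were Nbeal2, F2r, Tbxas1, Fyb, Plek and Nfe2. Only F2r, Tbxas1, Fyb and Nfe2 stood over 1 log2 above the 95th percentile on each array, 4 members beside 14.2% of all genes. The members' median on arrays 1, 2 and 3 was 6.42, 6.48 and 6.44 log2, which averaged 6.45 ± 0.03 (SD, n = 3), while the median of all genes was 5.95 ± 0.01. No set test was run on these figures, and they describe array signal only. The shares of 36.8% and 17.4% of all genes are the background for the counts by role that follow.

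**Figure D2:**
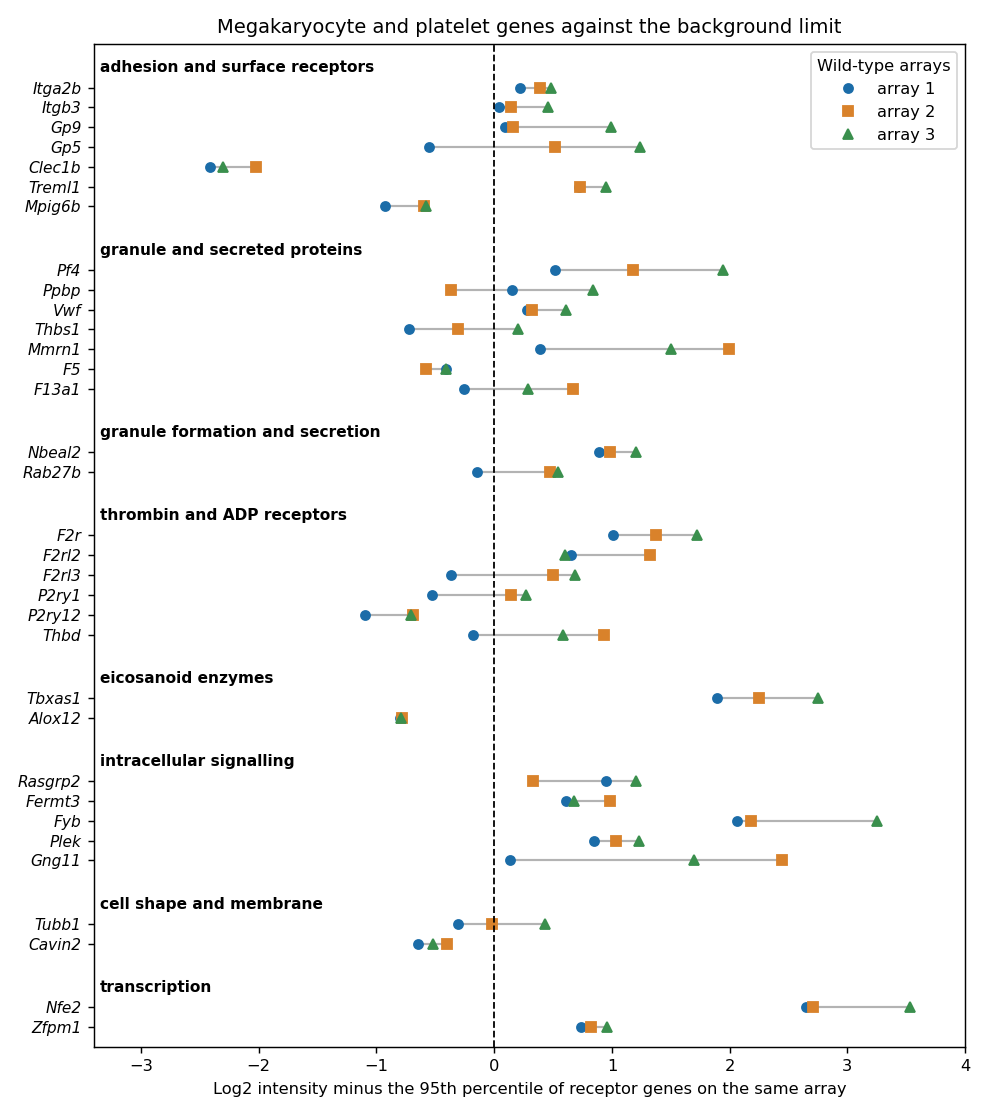
Log2 intensity of each of the 33 members minus the background limit of the same array, grouped by role, with 1 marker per array and a grey line over their range. The dashed line is the limit: 18 members lie to its right on all 3 arrays, 6 lie to its left on all 3, and only F2r, Tbxas1, Fyb and Nfe2 exceed it by over 1 log2 on each array.

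Of 7 surface receptors 4, or 57.1%, cleared the limit on every array, beside 36.8% of all genes, and 0 cleared the stricter limit, beside 17.4%. Itga2b, which encodes the integrin subunit CD41, read 6.51, 6.36 and 6.24 log2 on arrays 1, 2 and 3 (6.37 ± 0.14, SD, n = 3). Itgb3, the beta subunit that pairs with it as the fibrinogen receptor, read 6.33, 6.12 and 6.23. Both exceeded the limit by less than 0.5 log2 on each array, and Itgb3 by only 0.04 on array 1. With olfactory receptors alone as the reference, Itgb3 no longer cleared it.

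Gp9 and Gp5 encode subunits of the complex through which platelets bind von Willebrand factor. Gp9 read 6.39, 6.13 and 6.76 log2, and was 0.09 and 0.16 above the limit on arrays 1 and 2 but 0.99 above it on array 3. Gp5 read 5.75, 6.50 and 7.00, a range of 1.25 log2 or 2.38-fold, and lay below the limit on array 1. Both were highest on array 3. Treml1, a receptor stored in platelet granules, read 7.01, 6.70 and 6.72 and was at least 0.72 above the limit on each array. Clec1b, the podoplanin receptor, read 3.89, 3.95 and 3.47, more than 2 log2 under the limit throughout. Mpig6b, an inhibitory receptor, read 5.36, 5.37 and 5.19 and was also under it throughout.

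Among granule and secreted proteins, 3 of 7 measured members, or 42.9%, cleared the limit on every array, near the 36.8% of all genes. None of the 7 cleared the stricter limit, beside 17.4% of all genes. Pf4, the chemokine platelet factor 4, read 6.82, 7.15 and 7.71 log2 (7.23 ± 0.45, SD, n = 3), lowest on array 1 and highest on array 3. Its neighbour Ppbp, a related chemokine, read 6.44, 5.60 and 6.61, with its lowest value on array 2. The genes thus shared their highest array and not their lowest. Vwf, which encodes von Willebrand factor and is also a product of endothelium, read 6.58, 6.30 and 6.38 and lay between 0.28 and 0.61 above the limit.

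Mmrn1, which encodes the factor V carrier multimerin 1, read 6.69, 7.96 and 7.27 log2, a range of 1.28 log2 or 2.43-fold. It was highest on array 2 and lowest on array 1. F5, the gene of that coagulation factor, read 5.89, 5.40 and 5.36 and was under the limit on every array. F13a1, the catalytic subunit of the fibrin cross-linking factor, read 6.04, 6.65 and 6.06. Thbs1, an adhesive granule protein, read 5.57, 5.66 and 5.96.

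Of the genes for granule formation and release, Nbeal2, needed to build alpha granules, read 7.19, 6.96 and 6.97 log2. It cleared the 95th and the 99th percentile limits on every array. Rab27b, a GTPase of granule secretion, read 6.14, 6.45 and 6.30 and missed the limit on array 1 by 0.15.

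Thrombin and ADP receptors switch platelets on. Of the 6 genes of this group, which here includes the thrombin-binding Thbd, 2 cleared the limit on every array, F2r and F2rl2, a share of 33.3% that is near the 36.8% of all genes. F2r read 7.31, 7.34 and 7.48 log2 (7.38 ± 0.09, SD, n = 3), over 1 log2 above the limit on each array and with little spread. F2rl2 read 6.94, 7.30 and 6.36, lowest on array 3. In mouse platelets thrombin is known to act through the product of F2rl3 with that of F2rl2 as its helper, and F2r is known from other cells. F2rl3 read 5.92, 6.48 and 6.45, so it cleared the limit on arrays 2 and 3 only.

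The ADP receptor gene P2ry1 read 5.76, 6.11 and 6.04 log2, and P2ry12 read 5.20, 5.29 and 5.06. P2ry12, the target of common antiplatelet drugs, was under the limit on every array. Thbd, the gene of thrombomodulin, read 6.12, 6.90 and 6.35. Of this group 5 of 6 genes had their highest value on array 2, beside 38.6% of all genes. This was the largest such share of any role, and in the other roles it ran from 0% to 50%. Some of these orders rest on small differences, as for F2rl3 at 6.48 on array 2 and 6.45 on array 3. P2ry12 was under the limit throughout. By quantile normalisation of the arrays the count was 6 of 6, beside 36.9% of all genes. Without array 1, 5 of the 6 cleared the limit, beside 46.9% of all genes.

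The eicosanoid enzymes split. Tbxas1, which makes thromboxane, read 8.18, 8.23 and 8.52 log2 (8.31 ± 0.18, SD, n = 3) and was at least 1.89 above the limit on each array. Alox12, the platelet lipoxygenase, read 5.49, 5.20 and 4.97, and lay 0.78 to 0.80 under the limit on each array. Tbxas1 is also transcribed in monocytes and macrophages, whose markers are given further on.

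All 5 intracellular signalling members cleared the limit on every array, beside 36.8% of all genes. Only Fyb and Plek of the 5, or 40%, cleared the stricter limit, beside 17.4%. Fyb, an adaptor for integrin activation that T cells share, read 8.35, 8.16 and 9.02 log2 and was at least 2.06 above the limit. Plek, the protein kinase C substrate pleckstrin, read 7.14, 7.01 and 7.00 (7.05 ± 0.08, SD, n = 3). Fermt3, the integrin activator kindlin-3, read 6.90, 6.96 and 6.44. These genes serve other blood cells as well as platelets. Rasgrp2, an exchange factor for the GTPase Rap1, read 7.24, 6.30 and 6.97 and was lowest on array 2.

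Gng11, a G protein gamma subunit, read 6.42, 8.41 and 7.47 log2 (7.44 ± 0.99, SD, n = 3). Its values spanned 1.99 log2 or 3.97-fold, the widest range of any member. On array 1 it was 0.13 above the limit and on array 2 it was 2.44 above it.

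Neither member for cell shape and membrane cleared the limit on every array. Tubb1, the tubulin of the platelet marginal band, read 5.98, 5.96 and 6.20 log2, within 0.31 under and 0.43 over the limit. Cavin2, a membrane-coat protein of caveolae, read 5.64, 5.58 and 5.25 and was under it throughout. Both transcription members cleared it. Nfe2, which encodes the large subunit of NF-E2 and is required for platelet shedding, read 8.94, 8.69 and 9.30 (8.98 ± 0.31, SD, n = 3), at least 2.65 above the limit. Zfpm1, the partner of GATA factors also called FOG, read 7.03, 6.80 and 6.73 and was 0.74 to 0.96 above it.

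**Figure D3:**
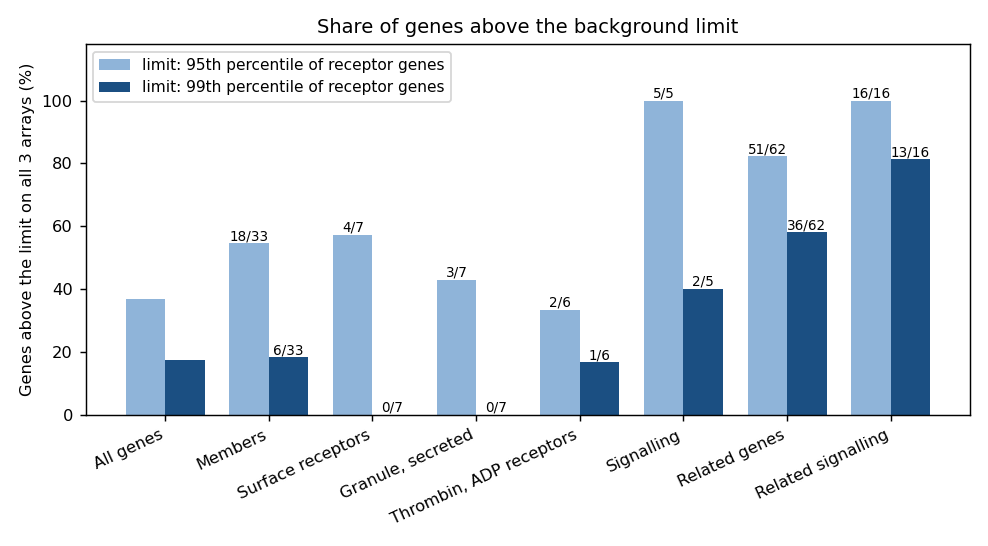
Percentage of genes above the background limit on all 3 arrays, for all genes, the members, 4 of their role groups and the related genes; pale bars use the 95th percentile of receptor genes as the limit and dark bars the 99th, and the fractions give the counts. Members pass in 18 of 33 cases at the first limit and 6 of 33 at the second, while the related genes pass in 51 of 62 and 36 of 62.

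The rest of the platelet pathway was followed in a list of 68 related genes that are no members, of which 62 were measured. Of these 51, or 82.3%, cleared the limit on every array, beside 36.8% of all genes, and 36, or 58.1%, cleared the stricter limit, beside 17.4%. The counts by role below are read against the same 36.8%. All 16 signalling genes did so at the first limit, among them Lat at 7.76 ± 0.29 log2 (SD, n = 3), Lcp2 at 9.19 ± 0.06, Syk at 6.76 ± 0.37 and Plcg2 at 7.63 ± 0.22, which act below the collagen and podoplanin receptors. Of the regulators 9 of 10 did, with Gfi1b at 7.46 ± 0.09, Fli1 at 9.69 ± 0.13 and Runx1 at 7.96 ± 0.28. The exception was Gata1, the partner of Zfpm1 in megakaryocytes, which read 5.75, 6.00 and 5.91 and missed the limit on array 1.

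Of 11 related receptors 7 cleared the limit, and the 4 that did not were Itga2 at 6.12 ± 0.75 log2 (SD, n = 3), Cd36, P2rx1 at 6.51 ± 0.43 and Ptgir at 5.69 ± 0.13. Cd36, a scavenger receptor, was under the limit on every array at 4.54 ± 0.27. The first measured of those that cleared it were Fcer1g at 7.97 ± 0.92, Itgb1 at 8.84 ± 0.27 and Itga6, which read 7.42, 8.65 and 7.93. Of the granule and secretion genes 9 of 12 cleared it, and Clu at 5.89 ± 0.21, Pdgfb at 5.63 ± 0.13 and Unc13d at 5.77 ± 0.16 did not. Sparc, Tgfb1 and Pdgfa did, at 6.64 ± 0.24, 7.12 ± 0.27 and 6.54 ± 0.12. Of the cytoskeletal genes 10 of 13 cleared it, including Flna at 7.09 ± 0.09 and Myh9 at 6.81 ± 0.20. The probe sets of Myh9 disagreed, at 5.85 ± 0.50 and 7.77 ± 0.12. Mylk at 5.85 ± 0.13, Myl9 at 5.49 ± 0.57 and Actn1 at 6.08 ± 0.36 did not clear it. At the stricter limit the counts were 13 of 16 signalling genes, 9 of 10 regulators and 8 of 13 cytoskeletal genes. They were lower for granule and secretion genes, 3 of 12 or 25%, and related receptors, 3 of 11 or 27.3%, beside 17.4% of all genes. These lists hold many genes used by other blood cells.

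Variation between the arrays was tested for every gene against genes of similar level. The test was a one-sided F test of each gene's variance against the trended prior that limma estimated, marked limma below. None of the 33 members passed this F test after Benjamini-Hochberg adjustment over 19938 genes (smallest adjusted p = 0.955, for Gng11), and 0% of all genes did. Before adjustment, 2 members had p under 0.05 in that test, beside 5.1% of all genes. They were Gng11 (unadjusted p = 0.0295, adjusted p = 0.955, limma) and Gp5 (unadjusted p = 0.0473, adjusted p = 0.967, limma). The SD of Gng11 was 2.97 times and that of Gp5 2.59 times the trend. In simulated data of 19938 genes, the test found 26% of 100 genes made to vary 10 times as widely as the trend and 81% of 100 made to vary 40 times as widely. The absence of calls therefore does not show that members were equal between arrays.

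**Figure D4:**
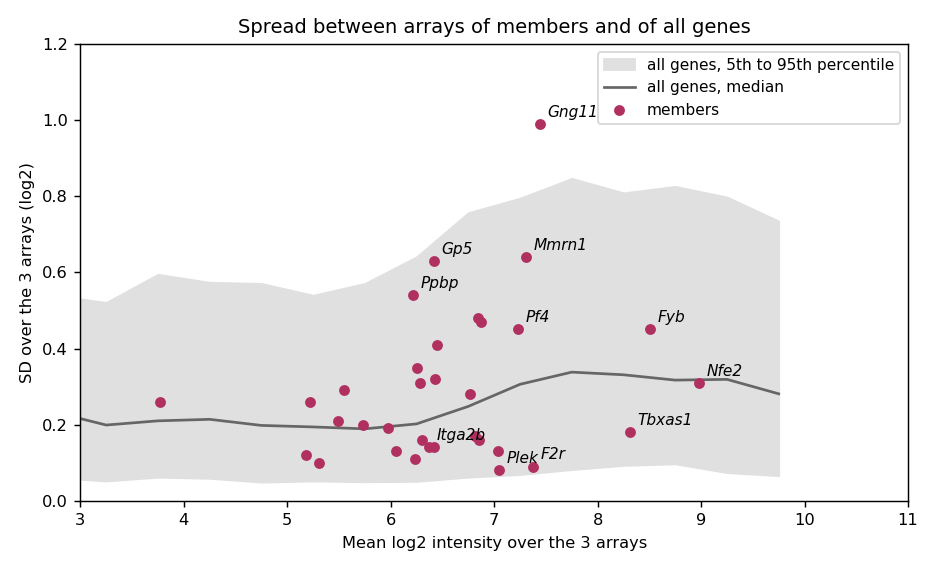
SD over the 3 arrays against mean log2 intensity for the 33 members (points), with the median (line) and the 5th to 95th percentile (grey band) of all genes in steps of 0.5 log2. Gng11 lies above the band at an SD of 0.99, while F2r and Plek, with SDs of 0.09 and 0.08, lie near its lower edge.

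A range over 1 log2 between the highest and the lowest array was found in 4 members, Gp5, Ppbp, Mmrn1 and Gng11, beside 10.5% of all genes. By quantile normalisation F2rl2 passed that range in place of Ppbp. In 17 members the range was under 0.5 log2, a count that was not made for all genes. By SD, members were no steadier than genes at large, with medians of 0.26 log2 for members and 0.22 for all genes. The members had no shared order of arrays: 11 were highest on array 1, 12 on array 2 and 10 on array 3, beside 31.6%, 38.6% and 29.8% of all genes. Members deviated from their own means by medians of 0.02, -0.04 and -0.04 log2 on arrays 1, 2 and 3. Between pairs of arrays the median absolute difference was 0.256 to 0.302 log2 for members and 0.248 to 0.259 for all genes.

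Markers of other cells also differed in value between the arrays, though none passed the variance test, as for all genes. Of 14 neutrophil markers 11, or 78.6%, were lowest on array 1, beside 34.1% of all genes, with list means of 8.06, 8.68 and 8.79 log2 on arrays 1, 2 and 3. Likewise 11 of 14 cleared the limit on every array, beside 36.8% of all genes, and the others were Elane at 6.18 ± 0.34 (SD, n = 3), Ctsg at 6.29 ± 0.75 and Mmp9 at 6.10 ± 0.43. S100a8 read 11.73, 12.31 and 12.20, S100a9 read 11.94, 12.57 and 12.61, Ngp read 9.25, 11.14 and 10.40 and Camp read 8.39, 9.39 and 9.55. Of the 33 platelet genes 12, or 36.4%, were lowest on array 1, near the share of all genes, with 10 lowest on array 2 and 11 on array 3. By role, 4 of 7 granule and secreted proteins and 4 of 6 thrombin and ADP receptors were lowest on array 1, with at most 1 in each other role. Of the 4 members with a range over 1 log2, Gp5, Mmrn1 and Gng11 were lowest on array 1 and Ppbp on array 2. The part of other cells in the values of the platelet genes was not tested. Of 10 erythroid markers 3, or 30%, cleared the limit on every array, Slc4a1, Car2 and Tfrc, beside 36.8% of all genes. Without array 1 it was 7 of 10, or 70%, beside 46.9% of all genes. The erythroid list means were 6.16, 6.53 and 6.56 log2, and Klf1 and Rhag were under the limit throughout. Epor at 5.90 ± 0.23, Car1, Ermap and Sptb missed the limit on array 1 alone. Alas2 at 6.23 ± 0.52 went the other way and missed it on array 3 alone. Car1 was lowest on array 1 and highest on array 3, with a range of 2.19 log2 or 4.55-fold. It did not pass the variance F test against limma's prior (adjusted p = 0.894).

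Of 10 monocyte and macrophage markers 3, or 30%, cleared the limit, Lyz2, Cd68 and Cx3cr1, beside 36.8% of all genes and with list means of 6.08, 6.27 and 6.23 log2. Csf1r, Adgre1, C1qa, C1qb and Marco were under it on every array. Of 10 endothelial and stromal markers 6, or 60%, cleared it, beside 36.8% of all genes, with list means of 6.07, 6.05 and 6.08. At the stricter limit it was 0 of 10, beside 17.4%. Those that cleared the first limit were the endothelial genes Emcn at 7.30 ± 0.56 (SD, n = 3), Pecam1 at 6.53 ± 0.45 and Stab2 at 6.15 ± 0.14 and the stromal genes Cxcl12, Col1a1 and Col1a2. Stab2 exceeded it by only 0.02 on array 1, and Pecam1, which is also on the list of related receptors, by only 0.04 on array 2. Cdh5 and Kdr, also of endothelium, were under it throughout at 5.42 ± 0.23 and 5.09 ± 0.19. Of the stromal genes, Lepr was under it throughout at 4.08, 3.89 and 4.04, and Col3a1 missed it on array 1 at 6.31 ± 0.06. Of 5 B cell markers 1 cleared it, Cd79b, and of 6 T and NK cell markers 1, Nkg7, which did not with olfactory receptors alone as the reference. Without array 1 the B cell count was 2, with Pax5, and without array 2 the T and NK cell count was 2, with Cd3e. Cd79a, Ms4a1, Ebf1, Cd3d, Cd4, Cd8a and Ncr1 were under it on every array. For the gate itself, Kit was at 10.01 ± 0.23 and Slamf1 at 6.51 ± 0.13, both over the limit throughout. Slamf1 exceeded it by only 0.11 on array 1 and, unlike Kit, did not clear the stricter limit on every array. Cd48, whose protein the gate excludes, read 4.61, 5.62 and 6.14 and was 0.37 above the limit on array 3. Ly6a is not analysed here. Of 11 stem cell markers 10 cleared the limit, among them Procr at 7.39 ± 0.38, Mecom at 8.09 ± 0.22, Hlf at 10.49 ± 0.30 and Mllt3 at 10.18 ± 0.41, the exception being Hoxb5 at 6.33 ± 0.27. At the stricter limit it was 5 of 11, or 45.5%, beside 17.4% of all genes.

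**Figure D5:**
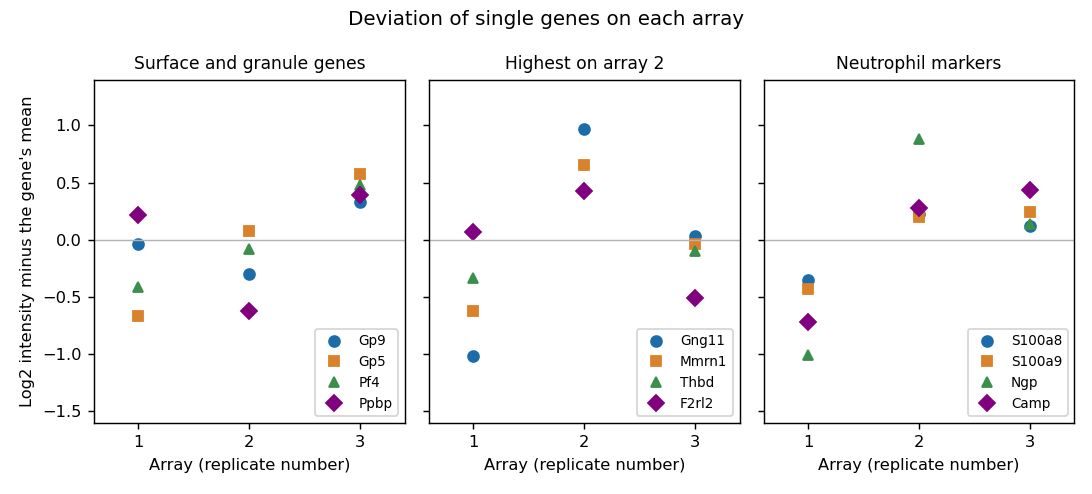
Log2 intensity of single genes minus their own mean on arrays 1, 2 and 3. Shown are 4 surface and granule members that were highest on array 3 (left), 4 of the 12 members that were highest on array 2 (middle) and the first 4 neutrophil markers of the list (right). In all, 2 of 7 surface receptors and 3 of 7 granule and secreted proteins were highest on array 3. Gng11 runs from 6.42 on array 1 to 8.41 on array 2, Ppbp is lowest on array 2, and all 4 neutrophil markers are lowest on array 1.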

How the data were processed

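Gene expression was measured on 3 biotin-labelled single-colour arrays of sorted cells after amplification of their RNA, per the labels' protocols. Per the submitters' processing notes, the authors used Affymetrix Expression Console and RMA to summarise probe sets. RMA subtracts background and forces the arrays of a run onto a shared distribution, which reduces array-wide differences in brightness. Differences remained in the background genes: of the 1229 receptor genes, 610 were highest on array 1, 497 on array 2 and 122 on array 3. The order of arrays in members near or under the limit may share in this. Which arrays shared that run is not given in the sources used here, nor are versions. The deposited values are intensities on a linear scale, from 2.82 to 18384 with medians of 60.4, 58.0 and 56.7, and log2 was taken without a pseudocount.

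Of 35554 probe sets, 21789 named 1 gene in the platform annotation, 1621 named several and 12144 were unnamed here. Probe sets of a gene were averaged, giving 19938 genes. A gene was called above background when it exceeded the 95th percentile of 1229 receptor genes on each array. Variances (2 degrees of freedom) were set against the robust trend of limma 3.58.1 in R 4.3.3 (4.34 prior degrees of freedom, one-sided F test, Benjamini-Hochberg, threshold 0.05), and the test was checked on simulated data. Promoter shares used the first RefSeq entry of each gene. Members and lists were chosen with earlier results of these data known. Every measured member is named. Of other lists, sort genes, the first 4 measured and the rarer side of the limit where 5 or fewer are named, and other markers were added after their values were seen. Alternatives were another percentile, olfactory receptors alone, the brightest probe set, 2 other scalings, each array left out, 2 other variance priors, a filter on low genes, and another window and GATA motif. The number of arrays limits the precision.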

Additional observations from a re-analysis of the deposited data

How the results depend on the processing

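The number of members above the limit on every array was 6 in place of 18 with the 99th percentile as the limit, and 17 with olfactory receptors alone. It ran from 18 to 24 when single arrays were left out, and was 18 with the brightest probe set, by quantile normalisation and by median subtraction. All 18 remained under each of these settings but the first pair, where 12 and 1 were lost. Most of the other settings could not lose a member. Leaving out an array only drops a condition, and both scalings keep the order of genes within an array, from which the limit is taken. Each member has 1 probe set, so with the brightest probe set only the limit could change. The 24 came without array 1, when Gp5, F13a1, Rab27b, F2rl3, P2ry1 and Thbd were added, and 46.9% of all genes then passed. The related genes above the limit numbered 36 to 53 over the same settings. The members' median level ran from 6.43 to 6.46 log2. The share of member promoters with a GATA motif was 26.9% with the longer word, beside 11.4% of all promoters. With the shorter words it was 50%, beside 40% of all promoters. The variance test called 0 members under each of its 9 alternatives by limma, with 1 to 3 members at an unadjusted p under 0.05 and a smallest adjusted p of 0.698 to 0.976. Without array 3, Gng11 had an unadjusted p of 0.00832 and an adjusted p of 0.698 (limma). No paired analysis was possible because all 3 arrays form 1 group. Affinity differs between probes, so a signal under the limit does not show that a gene is silent.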

Other observations

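Some related genes outside the list are given here, chosen after their values were seen. Every order of the 3 arrays occurs among the members, so any gene would repeat the order of some member. Itga2, the collagen-binding integrin subunit, read 6.53, 5.25 and 6.57 log2 on arrays 1, 2 and 3. Its lowest value was on array 2, as in Ppbp and Rasgrp2 and in 28.8% of all genes. Itga6, a laminin-binding integrin subunit, read 7.42, 8.65 and 7.93, with its highest value on array 2 and its lowest on array 1 as in Gng11 and Mmrn1. Of all genes 38.6% were highest on array 2 and 34.1% lowest on array 1. Myl9, the myosin light chain of platelet contraction, read 4.95, 6.08 and 5.45, in the same order as Itga6. Fcer1g, the signalling chain of the platelet collagen receptor, read 6.93, 8.29 and 8.69. None of these 4 genes passed the variance F test against limma's prior (adjusted p = 0.925 for Itga2, 0.983 for Itga6, 0.96 for Myl9 and 0.967 for Fcer1g). In the members and in these genes, 3 arrays do not allow an order to be tested.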
